A study of Mus musculus with 8 samples.

Results

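The 38 genes described here encode proteins of the centriole, the basal body and the centriolar satellites, and were chosen by name from 26180 mouse genes with a curated RefSeq transcription start site (TSS). A peak was assigned to a gene's promoter if it shared at least 1 bp with the window from 1 kb upstream to 100 bp downstream of any of its TSSs on mm10. The chromatin was that of wild-type newborn mice (postnatal day 0.5, total epidermis), with no transgene, deletion or treatment. The histone acetyltransferase MOF, which acetylates lysine 16 of histone H4, was mapped by ChIPseq. Rfx2, a transcription factor of ciliary genes, and the histone marks H3K4me3 (active promoters) and H3K27ac (active promoters and enhancers) were mapped by Cut&Run, where a nuclease tethered to the antibody cuts out the bound chromatin. Each antibody had 1 peak list, so no value has a replicate error, nothing was tested across replicates, and each share describes these libraries.

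Centrioles are cylinders of microtubules that organize the centrosome. In a dividing cell each old centriole seeds a new centriole, and in a resting cell the older centriole docks at the plasma membrane by its distal appendages and becomes the basal body from which the primary cilium grows. Centriolar satellites are granules around the centrosome that hold and deliver centrosomal and ciliary proteins, and keratinocytes of the skin use these structures both to divide and to build a primary cilium.

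H3K4me3 at marker genes was set beside the epidermal label. It was present at 6 of 10 keratinocyte markers (Krt5, Krt14, Trp63, Dsg3, Col17a1 and Sfn) and absent from the list at Krt1, Krt10, Lor and Itga6. It was also present at 3 of 6 fibroblast markers (Col1a2, Pdgfra and Dcn), 1 of 4 endothelial markers (Kdr), 2 of 5 melanocyte markers (Mitf and Pmel) and 0 of 5 immune markers. Other cells of the tissue could therefore add to a peak, and their part in the results was not tested. The lists held 17546 MOF, 337 Rfx2, 27039 H3K4me3 and 30736 H3K27ac peaks, and carried no read counts. The study states the reads of each library, of which Rfx2 had the fewest among the 4 lists, but they were not used here, so heights and counts of peaks were not compared between lists. The deposited MOF list is longer than the authors' own account of it and may be a different or unfiltered call, on which all MOF values here depend. The labels attach the H3K4me3 list to the repeat library, but its name lacks the mark of a repeat.

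All 38 genes had H3K4me3 at the promoter and 37 had H3K27ac. Of all genes, 54.0% had H3K4me3 and 44.1% had H3K27ac, and of the 14132 genes with H3K4me3, 79.8% also had H3K27ac. MOF was present at 26 of the 38 promoters (68.4%, exact 95% confidence interval 51.4 to 82.5%), against 23.7% of all genes and 42.0% of genes with H3K4me3. Rfx2 was present at 1 promoter, that of Cep162 (2.63%, 0.0666 to 13.8%), against 1.21% of all genes and 2.24% of genes with H3K4me3. The MOF share lay above the background of genes with H3K4me3 also at the lower end of its interval. This depended on how peaks were assigned. By their centre, MOF was at 15 of the 38 genes (39.5%, against 14.7% of all genes), and at 5 of the 13 that kept H3K4me3 (38.5%, against 34.2% of all genes with H3K4me3 so assigned). With MOF required over a TSS, a choice made after seeing the data, it was at 23 of the 38 genes. That was 60.5% (43.4 to 76.0%), against 36.5% of genes with H3K4me3. The Rfx2 share was near its background and is no result about these genes. Intervals cover counting error over genes only, and genes are not replicates.

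The lists divided the genes into 3 classes. MOF, H3K4me3 and H3K27ac were together at 26 promoters (68.4%), against 39.0% of genes with H3K4me3. Both marks without MOF were at 11 of the 38, and H3K4me3 alone at 1, Cep135, against 5772 and 2426 of the 14132 genes with H3K4me3. The nearest H3K27ac peak of Cep135 lay outside the window, 297 bp downstream of the TSS. Windows of 500 bp or more on either side of the TSS counted it. No promoter had MOF without H3K4me3. The genes lay on 16 chromosomes, and each promoter with MOF had a single MOF region.

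**Figure D1:**
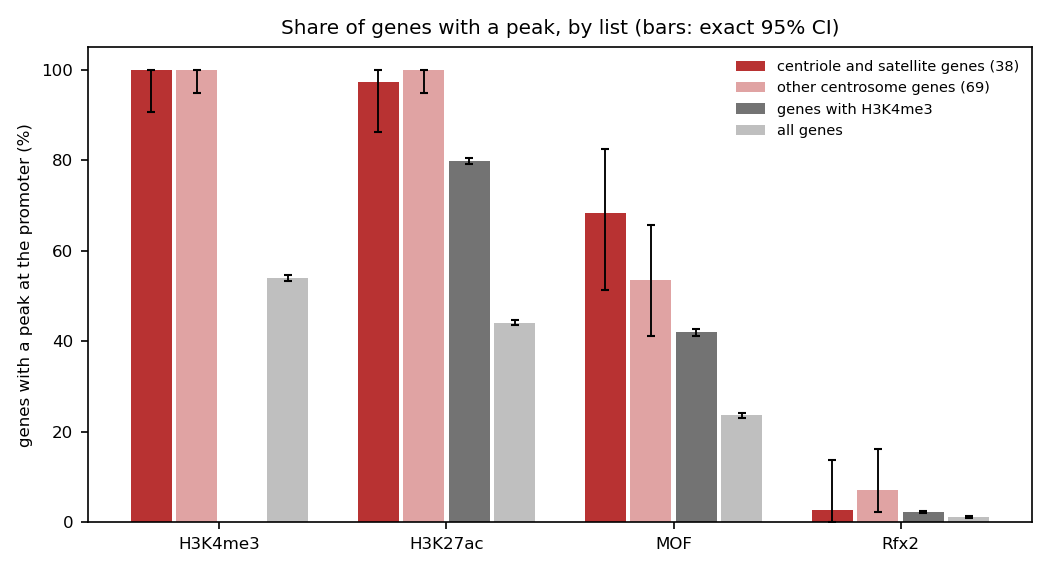
Share of genes with a peak at the promoter (y axis, %) in each of the 4 peak lists (x axis), for the 38 centriole and satellite genes, 69 other centrosome genes, genes with H3K4me3 and all genes, with exact 95% confidence intervals as lines. MOF was at 68.4% of the 38 genes, 53.6% of the other centrosome genes, 42.0% of genes with H3K4me3 and 23.7% of all genes.

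Genes of centriole duplication and assembly carried MOF at 12 of 14 promoters (85.7%, 57.2 to 98.2%, against 42.0% of genes with H3K4me3). Their MOF scores ranged widely. The score is the authors' value for a region, its scale is not stated, and it was used only to rank MOF regions against each other, with a median of 651 over the 5221 MOF regions at promoters. Over the 12 genes the median score was 704, below that of all 26 centriole and satellite genes with MOF (732.5). It was 1133 at Plk4, the kinase that starts duplication, 1220 at Stil, which Plk4 binds and phosphorylates, and 1179 at Cep152, which brings Plk4 to the centriole. Cenpj, a regulator of centriole length, scored 1238. These 4 were among the 5 highest of the 38 genes.

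Other assembly genes had scores from 527 to 748. Sass6, whose product forms the cartwheel that sets the centriole's symmetry, scored 647 and Cep295, needed for the new centriole to become a centrosome, scored 651. Cep120, which promotes elongation, scored 721, Cntrob, found on the daughter centriole, 748, and Cep85, a partner of Stil, 687. The scaffold genes Cep57 and Cep63, whose products form a ring with Cep152, scored 627 and 576, and Cep192, which recruits Plk4 and the pericentriolar material, scored 527. With peaks assigned by their centre, 6 of the 14 kept MOF, and Plk4, Sass6, Cep63, Cep120, Cep295 and Cntrob did not.

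Without MOF in this group were Cep135, a cartwheel protein, and Cep76, a limiter of repeated duplication. The nearest MOF region lay 51699 bp from the TSS of Cep135 and 133992 bp from that of Cep76. Both had H3K4me3, with a fold enrichment of 10.4 (width 1219 bp) at Cep135 and 7.37 (1867 bp) at Cep76.

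**Figure D2:**
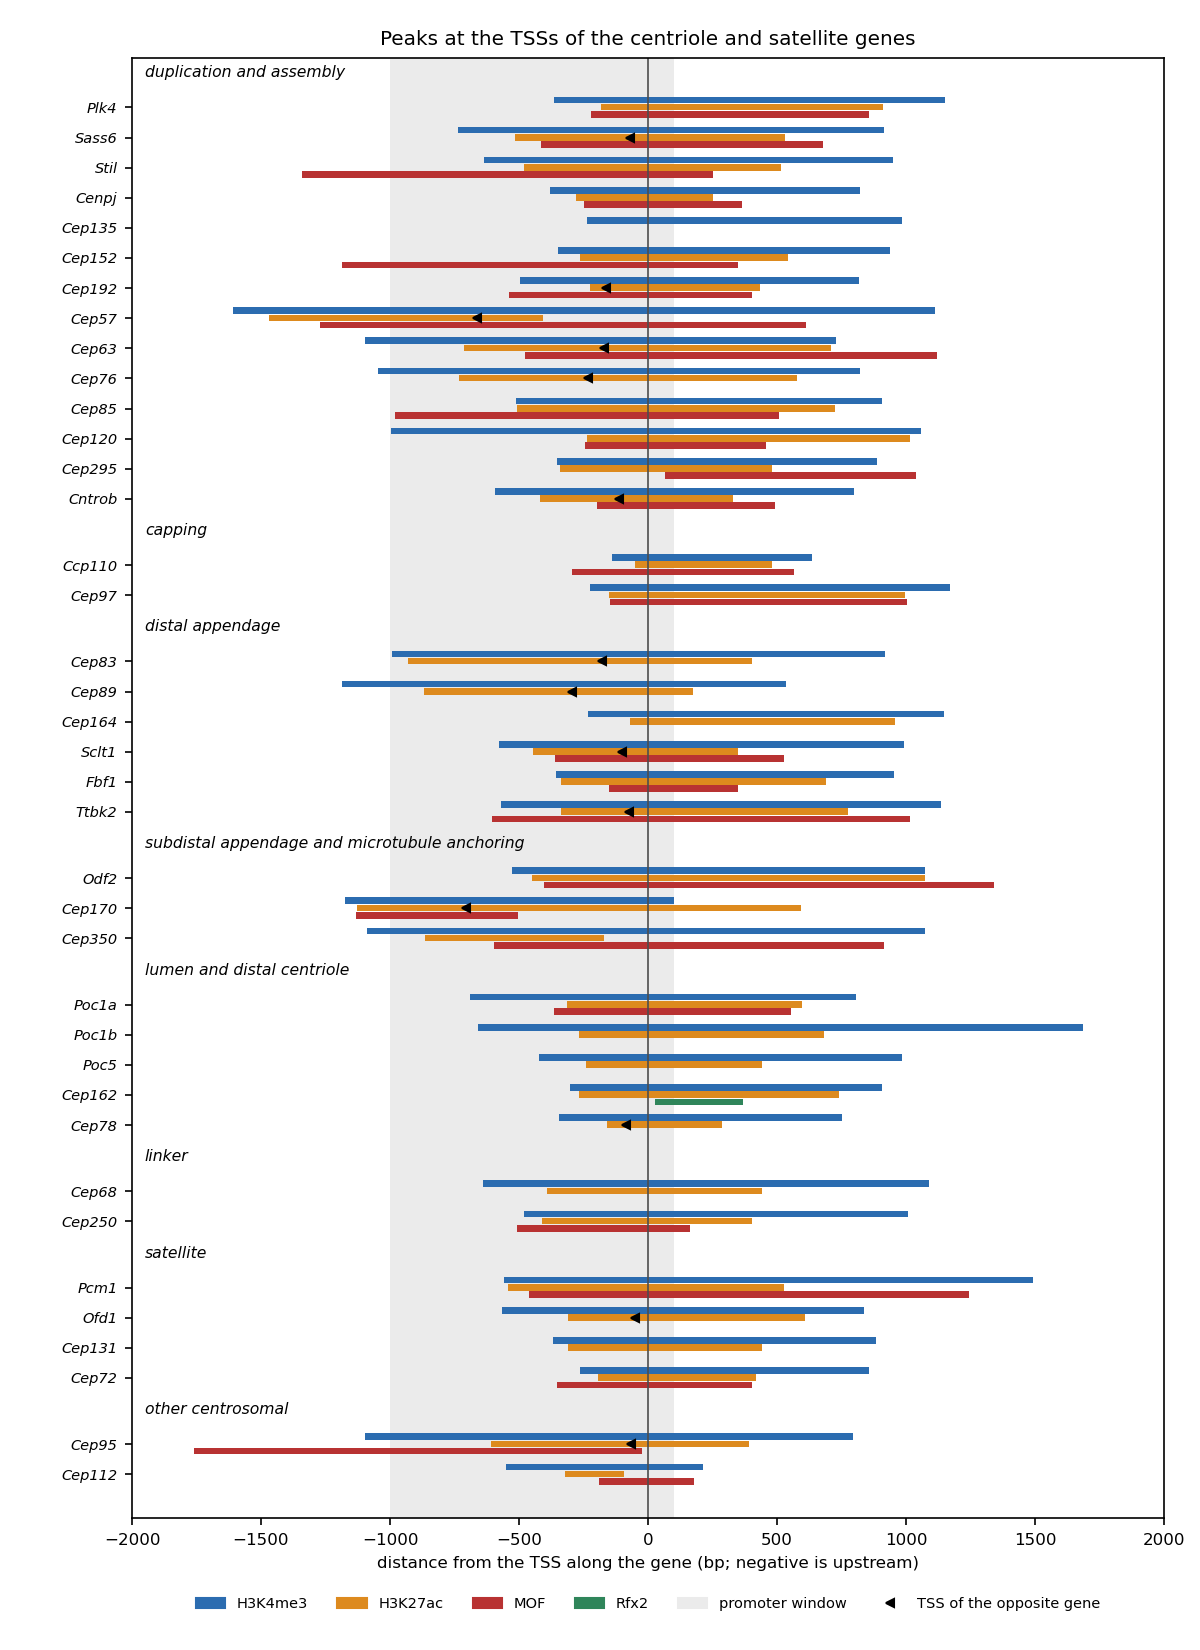
Peaks at the 38 promoters, drawn to scale by distance from the TSS (x axis, bp, negative upstream) and grouped by role (rows), with the leading peak of each list at each gene, the promoter window in grey and the TSS of an opposite gene as a triangle. H3K4me3 was at all 38 genes, MOF at 26 and Rfx2 at Cep162 only; Cep57 had a further H3K27ac peak that is not drawn.

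The distal end of the centriole is closed by the cap proteins Ccp110 and Cep97 until a cilium is built. MOF overlapped both promoters, with scores of 571 and 665, but the centre of neither region lay in the window. The exact interval, 15.8 to 100%, held the 42.0% of genes with H3K4me3, so this is no result about the cap genes. Ccp110 had a MOF region 858 bp wide, wider than its H3K4me3 peak of 775 bp.

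Of the 6 distal appendage genes, 3 had MOF (50%, 11.8 to 88.2%), near the 42.0% of genes with H3K4me3. Sclt1 scored 919 and Ttbk2, the kinase recruited to the appendages to remove the cap and start ciliogenesis, scored 693. Fbf1 had the lowest score of all 26, 287, over 501 bp. The other 3 genes, Cep83, Cep89 and Cep164, had none at the promoter. Cep83 is needed to assemble the appendages and Cep164 recruits Ttbk2. The nearest MOF region was 112218 bp from Cep83 and 15086 bp from Cep164, in the gene body. Cep89 had the nearest of all MOF-free genes, 7822 bp upstream.

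All 3 genes of the subdistal appendages and microtubule anchoring had MOF, Cep170 with a score of 1116, Cep350 with 800 and Odf2 with 430. By its centre 1 of the 3 kept MOF, not Cep350 or Odf2, and within 500 bp of the TSS Cep170 had none. MOF was at 1 of the 5 genes of the centriole lumen and distal centriole. That gene was Poc1a (1015), whereas its paralogue Poc1b had no MOF within 21871 bp, nor had Poc5 (75738 bp), Cep162 (83032 bp) or Cep78 (48916 bp). Poc1a and Poc1b encode related proteins of the centriole wall, and the pair differed in MOF although H3K4me3 (fold enrichment 9.43 and 6.61) and H3K27ac (7.04 and 6.59) were at both. With 3 and 5 genes the exact intervals of these shares, 29.2 to 100% and 0.505 to 71.6%, overlapped and both held the 42.0% of genes with H3K4me3, so neither share is a result about its group.

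Of the genes for the linker that holds the parental centrioles together, 1 of 2 had MOF. Cep250, which anchors the linker, had MOF with a score of 1123, and Cep68 had none within 47329 bp. Among the satellite genes, the scaffold Pcm1 (744, not when assigned by its centre) and Cep72 (825) had MOF, and Ofd1 and Cep131 had none, with the nearest regions 49983 and 33534 bp away. Cep95 and Cep112, centrosomal proteins outside these groups, both had MOF, with the highest score of the 26 at Cep95 (1272) and the second lowest at Cep112 (342). The exact intervals were 1.26 to 98.7% for the linker, 6.76 to 93.2% for the satellites and 15.8 to 100% for Cep95 and Cep112. All held the 42.0% of genes with H3K4me3, so none of these shares is a result about its group.

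Over the 26 genes the MOF score ranged from 287 to 1272 with a median of 732.5, against 660 over the 5934 genes with H3K4me3 and MOF. It was above the median of promoter MOF regions at 17, among their highest 25% at 9 and among their lowest 25% at 3 (Fbf1, Cep112 and Odf2). The median width of the MOF region was 1024 bp, against 1020 bp over the same genes.

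**Figure D3:**
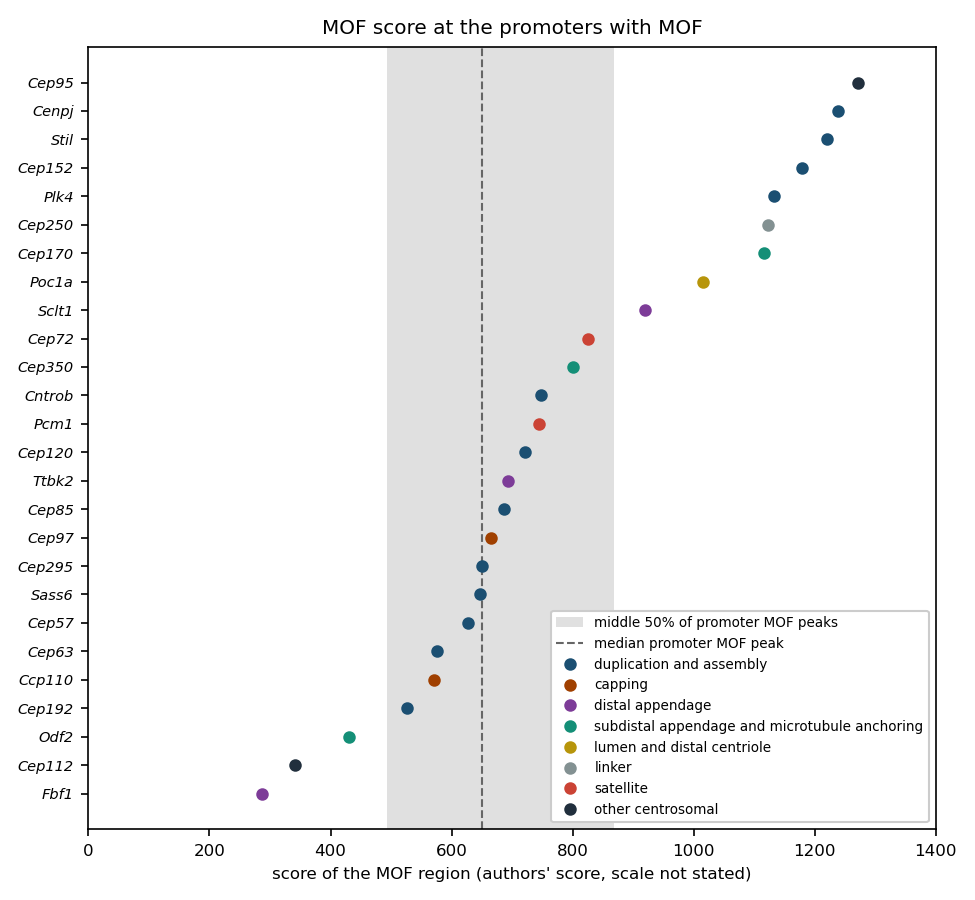
MOF score (x axis, the authors' score, scale not stated) at each of the 26 promoters with MOF (rows, ordered by score, colours by role), beside the middle 50% (grey) and the median (dashed line) of promoter MOF regions. The points run from 287 at Fbf1 to 1272 at Cep95, and 17 lie above the median of 651.

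The MOF region covered the TSS at 23 of the 26 genes, against 85.6% of all genes with MOF. At Cep295 it began 66 bp downstream of the TSS and ran to 1036 bp. At Cep170 it lay between 1133 and 505 bp upstream, over the TSS of the opposite gene Sdccag8, and at Cep95 between 1759 and 24 bp upstream, over the TSS of the opposite gene Ddx5. At both of these genes the MOF region covered the TSS of the opposite gene but not their own. At the downstream edge of the window, Cep162's Rfx2 peak began 28 bp and Cep295's MOF region 66 bp from the TSS, just inside, and Cep135's H3K27ac peak lay just outside, 297 bp from the TSS.

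The genes with several curated TSSs differed among themselves. Of 5 such genes, Ttbk2 and Cep57 had the same lists at each TSS. The TSS 706 bp upstream of the leading TSS of Odf2, and the inner TSSs of Cep170 (6829 and 16645 bp downstream) and Cep112 (257343 and 257352 bp downstream), had no peak of any list. In the gene bodies beyond the promoters, MOF was found in 10 genes (26.3%, against 24.1% of genes with H3K4me3), H3K4me3 in 9 (23.7% against 28.5%), H3K27ac in 15 (39.5% against 31.3%) and Rfx2 in 0 (against 0.311%). The median gene was 43.0 kb long, against 21.8 kb, and among genes with H3K4me3 in the same range of length the shares were 34.5% for MOF, 38.1% for H3K4me3 and 41.9% for H3K27ac. These counts are near or below the background and are no result about these genes. Cep112, the longest of the genes at 435 kb, held 6 H3K27ac peaks in its body.

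The H3K4me3 peak was 762 to 2718 bp wide at the 38 genes, with a median of 1452 bp against 1319 bp over genes with H3K4me3. It was wider than 1000 bp at 36 of 38, against 72.9% of genes with H3K4me3. The widest were at Cep57 (2718 bp), Poc1b (2346 bp) and Cep350 (2166 bp), and the narrowest at Cep112 (762 bp), Ccp110 (775 bp) and Cep78 (1096 bp). Fold enrichment ran from 4.2 at Cep95 to 15.4 at Cep72, with a median of 8.61 against 7.98. Wider peaks were the lower ones: width and fold enrichment correlated with a Pearson's r of -0.757 and a Spearman's rho of -0.738 over the 38 genes, and -0.23 and -0.218 over genes with H3K4me3. These are descriptions across genes of a single library, and both measures come from the same reads.

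The summit of H3K4me3 lay downstream of the TSS at 26 genes and upstream at 12, against 62.4% downstream over genes with H3K4me3, and the peak reached farther downstream than upstream at 29, against 67.1%. Downstream was thus the usual side in the background too, and no difference from it is read from these counts. The summits farthest downstream were at Poc1b (1127 bp) and Pcm1 (1093 bp).

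**Figure D4:**
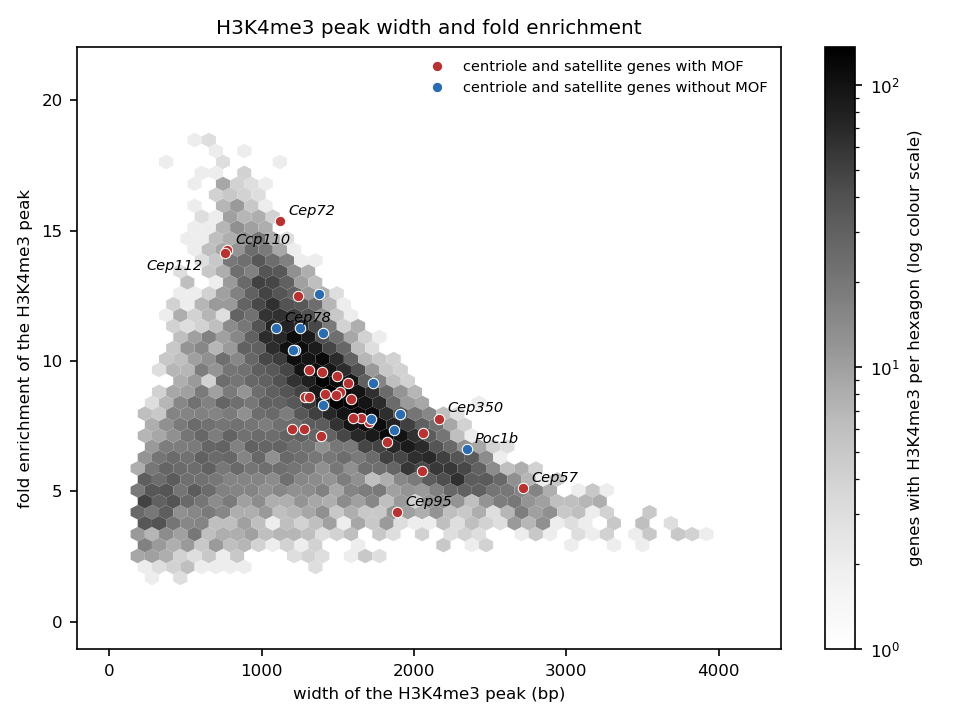
Width (x axis, bp) and fold enrichment (y axis, as the peak caller gave it) of the H3K4me3 peak at the 38 genes, with MOF in red and without in blue, over all 14132 genes with H3K4me3 (grey hexagons, log colour scale). Genes with and without MOF mix along the same band, which falls from Cep72 (15.4-fold, 1118 bp) to Cep57 (5.12-fold, 2718 bp).

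Genes with and without MOF had H3K4me3 peaks of overlapping size. The median width was 1492 bp (762 to 2718 bp) in the 26 with MOF and 1402 bp (1096 to 2346 bp) in the 12 without, a difference of 89.5 bp, and the median fold enrichment 8.59 and 9.78. Over genes with H3K4me3, the share with MOF rose with the width of the H3K4me3 peak, from 19.5% in the narrowest of 5 width classes of near-equal size to 36.9, 45.5, 51.7 and 56.2% in the wider classes. In the same classes MOF was at 2 of 2, 1 of 2, 9 of 15, 8 of 10 and 6 of 9 of the centriole and satellite genes. The middle class thus held the most of these genes, 15, and the 2 narrowest classes held 2 each. The part of width in their MOF share was not tested. H3K27ac was 230 bp wide at Cep112 to 1721 bp at Cep170, and its fold enrichment was 4.17 at Cep112 to 11.1 at Sass6 (median 7.64, against 6.77 over genes with H3K4me3).

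A gene on the opposite strand started within 1 kb upstream at 14 of the 38 genes (36.8%, 21.8 to 54.0%), against 19.1% of genes with H3K4me3. Such pairs share a promoter region, from which both genes are transcribed outward. At all 14 the partner's promoter overlapped the same H3K4me3 peak, and at 9 the same MOF region. The promoter windows of such close TSSs overlap, so this sharing follows largely from how the pairs were chosen. The partners with shared MOF were D3Ertd751e at Sclt1 (101 bp between the TSSs), AV039307 at Ttbk2 (72 bp), Trmt13 at Sass6 (71 bp), 4930549G23Rik at Cep192 (164 bp), Fam76b at Cep57 (663 bp), Anapc13 at Cep63 (172 bp), Trappc1 at Cntrob (113 bp), Sdccag8 at Cep170 (707 bp) and Ddx5 at Cep95 (67 bp). Without MOF were the pairs of Cep83 with Cep83os (177 bp), Cep89 with Faap24 (296 bp), Cep76 with Psmg2 (232 bp), Cep78 with C130060C02Rik (86 bp) and Ofd1 with Trappc2 (51 bp). MOF was at 9 of the 14 paired genes (64.3%, 35.1 to 87.2%) and 17 of the other 24 (70.8%, 48.9 to 87.4%), with overlapping intervals. Over genes with H3K4me3 it was at 59.5% of those with an opposite gene and 37.8% of those without. At such pairs the lists cannot tell the peak of the gene from that of its partner.

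The sequences between the TSSs of the closest pairs are shown because both genes start at their ends, within the shared H3K4me3 peak, on the strand of the named gene (GRCm38, the assembly of mm10). Capitals mark matches to CCAAT (NF-Y), GCGCNTGCG (NRF1) and CTCGCGAGA (BANP) on either strand. They are Sclt1 (chr3:41742515-41742614, minus strand), Ttbk2 (chr2:120850585-120850655, minus), Sass6 (chr3:116594888-116594957, plus), Cntrob (chr11:69323874-69323985, minus) and Cep95 (chr11:106789186-106789251, plus), with MOF, and Cep78 (chr19:15984990-15985074, minus) and Ofd1 (chrX:166440705-166440754, minus), without.
Sclt1: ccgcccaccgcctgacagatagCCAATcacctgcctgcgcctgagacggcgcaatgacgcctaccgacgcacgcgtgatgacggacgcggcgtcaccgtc
Ttbk2: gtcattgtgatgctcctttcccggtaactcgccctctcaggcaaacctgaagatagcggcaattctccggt
Sass6: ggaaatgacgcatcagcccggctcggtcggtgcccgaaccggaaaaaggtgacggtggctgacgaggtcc
Cntrob: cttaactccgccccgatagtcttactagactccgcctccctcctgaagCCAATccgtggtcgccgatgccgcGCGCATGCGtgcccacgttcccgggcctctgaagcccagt
Cep95: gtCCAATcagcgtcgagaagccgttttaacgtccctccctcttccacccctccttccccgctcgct
Cep78: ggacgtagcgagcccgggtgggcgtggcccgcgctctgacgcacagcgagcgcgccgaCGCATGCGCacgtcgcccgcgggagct
Ofd1: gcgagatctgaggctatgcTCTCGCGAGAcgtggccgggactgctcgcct
Sclt1, Cntrob and Cep95 held the NF-Y letters and Cntrob and Cep78 those of NRF1 between the TSSs, so the NRF1 letters were found both with and without MOF, and the NF-Y letters in 3 of the 5 stretches with MOF and 0 of the 2 without. With 7 stretches shown, no difference is read from these counts.

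Over the window from 250 bp upstream to 50 bp downstream of the leading TSS, the CCAAT letters were in 20 of the 38 promoters (52.6%, against 38% of genes with H3K4me3), GCGCNTGCG in 10 (26.3% against 13.7%), CCGGAAG (ETS) in 9 (23.7% against 18.1%) and TTCCCGC (E2F) in 8 (21.1% against 8.88%). E2F proteins drive genes of the cell cycle, and the 8 promoters with their letters were those of Plk4, Stil, Cep152, Cep57, Cep76, Cep295, Cep170 and Cep112. The letters CTCGCGAGA were at Cep350 and Ofd1 (5.26% against 1.43%). Near their background were TGACGTCA (CRE), at Cep57 (2.63% against 3.45%), and TATAAA (the TATA box), at Ccp110, Cep97 and Cntrob (7.89% against 6.21%). Both strands were searched, and a match of letters is no site. The ratio of observed to expected CpG dinucleotides was 0.862 (median), against 0.780, and ran from 0.45 at Cep97 to 1.24 at Poc1b.

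The only Rfx2 peak was at Cep162, whose product sits at the distal end of the centriole and promotes assembly of the transition zone at the base of the cilium. It was 339 bp wide, with a fold enrichment of 6.07, which was higher than at 27.1% of Rfx2 peaks at promoters. It spanned chr9:87255166-87255504, with its summit 132 bp downstream of the TSS, inside the H3K4me3 and H3K27ac peaks. Cep162 lost this peak when peaks were assigned by their centre, and when only the stronger 50% of the list was kept. The nearest MOF region was 83032 bp from the TSS. Of the 317 genes with Rfx2 at the promoter, 206 had MOF. The other 37 genes had no Rfx2 peak within 38538 bp, the distance at Cep97.

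The X-box is the inverted repeat that RFX factors bind, here 12 defined positions with 0 to 3 bases between its arms. The Cep162 window held no full X-box. A stretch matching 11 of the 12 positions lay 208 to 221 bp downstream of the TSS, 76 bp from the Rfx2 summit, in a non-coding exon part. Full X-boxes were in the promoter windows of Cep135 and Cep112, without an Rfx2 peak in the list (5.26% of the 38, against 3.0% of all genes, 3.35% of genes with H3K4me3 and 26.2% of genes with Rfx2). That of Cep135 lay 68 to 81 bp downstream of the TSS, in a non-coding exon part. Cep112 had a pair, 240 to 227 and 84 to 71 bp upstream of the TSS, both under its H3K4me3 peak and the nearer of them under its MOF region. The sequences below are shown so that the peak and the matches can be compared, with the matched stretch in capitals, for Cep162 (chr9:87255303-87255332, minus strand), Cep135 (chr5:76588759-76588788, plus) and Cep112 (chr11:108425016-108425205, plus).
Cep162: aggggtctGTTGCCCTGACAACagcccgct
Cep135: tccggtccGTTACCGGGGCAACggcggcgc
Cep112: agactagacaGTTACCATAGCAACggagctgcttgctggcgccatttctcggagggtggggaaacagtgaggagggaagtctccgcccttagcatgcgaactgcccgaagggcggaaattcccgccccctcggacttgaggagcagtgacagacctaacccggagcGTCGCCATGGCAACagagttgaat
A match at 11 or 12 positions was found within 100 bp of the summit in 38.9% of the 337 Rfx2 peaks and in 6.41% of the 26714 H3K4me3 peaks without Rfx2. This looser match was chosen after the Cep162 sequence was seen.

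Other genes of the centrosome were counted for comparison. MOF was at 20 of 34 other centriole genes, 5 of 10 other satellite genes and 12 of 25 genes of the pericentriolar material, which nucleates microtubules, or 37 of these 69 (53.6%, 41.2 to 65.7%). The interval overlapped that of the 38 genes (51.4 to 82.5%). H3K4me3 and H3K27ac were at all 69. Rfx2 was at 5 of the 69 (7.25%, 2.4 to 16.1%, against 2.24% of genes with H3K4me3), all among the 34 other centriole genes (14.7%, 4.95 to 31.1%): Cep19 (fold enrichment 7.27), Wdr90 (7.27), Tube1 (6.68), Cep41 (6.37, with an X-box) and Sfi1 (4.96), and MOF was at 4 of them, not at Wdr90. Cep19 promotes ciliogenesis from the distal end of the mother centriole, Tube1 encodes epsilon-tubulin and Sfi1 a binding partner of centrins.

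Genes that amplify centrioles in cells with many motile cilia, a cell type not known from the epidermis, were counted too. Of 7 such genes, 4 had H3K4me3 (57.1%, 18.4 to 90.1%, against 54.0% of all genes), 1 had H3K27ac (14.3%, 0.361 to 57.9%, against 44.1%) and 1, Ccno, had MOF (14.3%, 0.361 to 57.9%, against 23.7%). With 7 genes, the H3K4me3 share was near its background, and the intervals of the MOF and H3K27ac shares held theirs. Foxj1, the regulator of motile cilia, had Rfx2 (fold enrichment 8.45) and H3K4me3 but neither H3K27ac nor MOF.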

How the data were processed

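The authors aligned single-end MOF ChIPseq and paired-end Cut&Run reads to mm10 with Bowtie2 (very sensitive, local) and called peaks library by library with MACS2; a control library was not stated. The deposited MOF list gives a score for each region, of unstated scale. The other deposited lists give the authors' fold enrichment (a ratio), −log10 p-value and −log10 q-value for each peak; these significance values served only to take the stronger 50% of each list. Libraries of H4K16Ac and H3K4me1 and the other H3K4me3 and H3K27Ac libraries were not used here. Without replicates a share has no replicate error. The deposited lists hold no read counts, and the library totals that the study states were not used here, so no limit from depth was computed.

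Peaks were overlapped with promoters of curated RefSeq transcripts of GRCm38.p6 (Python 3.11.15, pandas 2.3.3, pyfaidx 0.9.0.4), and intervals are exact (Clopper-Pearson, SciPy 1.17.1). For a gene with several TSSs, distances are from the leading TSS. The overlap step was checked on 3000 simulated windows, of which 0 disagreed with bedtools (2.31.1). No peak list column was left without a sample. All genes are accounted for. Described in full are those with Rfx2, with the 5 highest and 5 lowest MOF scores, with the 3 widest and 3 narrowest H3K4me3 peaks, and with an opposite gene. The genes, lists, roles and measures were chosen with earlier results of these data known.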

Additional observations from a re-analysis of the deposited data

How the results depend on the processing

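No paired analysis was possible because every target was represented by 1 list of peaks, and for the same reason no replicate could be left out. Of 42 alternative values, 36 were within 1.5 times the reported value. With windows of 500 bp, 1 kb or 2.5 kb on either side of the TSS, or with TSSs of coding transcripts only or of predicted transcripts too, H3K4me3 was at 38, H3K27ac at 37 or 38, MOF at 25 or 26 and Rfx2 at 1 of the 38 genes. The window of 500 bp lost MOF at Cep170. Taking only peaks centred in the window left MOF at 15, H3K4me3 at 13, H3K27ac at 23 and Rfx2 at 0 genes, against 14.7, 25.5, 26.2 and 0.997% of all genes. MOF was then at 38.5% of the 13 genes that kept H3K4me3, against 34.2% of all genes with a centred H3K4me3 peak. This window reaches 1 kb upstream but 100 bp downstream, and H3K4me3 reached farther downstream than upstream at 29 genes. The stronger 50% of each list left MOF at 20, H3K27ac at 34 and Rfx2 at 0 genes, against 14.6, 36.7 and 0.619% of all genes. It took MOF from Fbf1, Ccp110, Cep192, Cep63, Odf2 and Cep112. With the lower-scored MOF regions alone removed, a choice made after seeing the data, MOF was at 52.6% of these genes against 26.1% of genes with H3K4me3. Requiring MOF over a TSS, also chosen after seeing the data, left 23 (60.5%), against 36.5% of genes with H3K4me3 and 20.3% of all genes. X-boxes were in 2 promoters with spacers of 1 or 2 bases (against 2.36% of all genes). They were in 3 with 1 kb on either side of a TSS (against 4.3%). Depth limits every absence: a missing peak says only that none was called.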
